A study of Mus musculus with 6 samples.

Results

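The genes described here encode plasma proteins of the complement and coagulation systems. A list of 42 mouse gene symbols was matched to the gene names of the deposited expression table, and all 42 were found among its 55401 genes. RNA was sequenced from livers of C57BL/6 mice in 3 groups of 2 libraries each. Mice of the COS+APAP group (replicates 2 and 3) received 20 mg/kg costunolide, a sesquiterpene lactone from plants abbreviated COS. It was given first 12 h and again 40 min before an intraperitoneal dose of 400 mg/kg acetaminophen (APAP), which acted for 6 h. Mice of the APAP group (replicates 1 and 3) received 400 mg/kg APAP for 6 h with no COS. The control group (replicates 1 and 3) is labelled normal and received neither agent. No vehicle, age, sex or collection hour is given for any group, the labels do not say that libraries came from separate animals, and no group with COS alone was analysed here.

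Hepatocytes make most of the soluble proteins of blood clotting and complement and secrete them into plasma. In clotting, a chain of serine proteases ends in thrombin, which cuts fibrinogen into fibrin, and inhibitors of the serpin family hold these proteases in check. In complement, the classical, lectin and alternative pathways meet at C3 and lead to the membrane attack complex. Several of these proteins belong to the acute phase response, in which cytokines such as IL-6 alter hepatocyte transcription, and an overdose of APAP injures hepatocytes directly and impairs clotting.

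The 6 libraries held 71115112 to 76669799 estimated counts, and no library had fewer than 1655 estimated counts for any of the 42 genes. Summed FPKM (fragments per kilobase of transcript scaled to depth) of 7 hepatocyte marker genes was 52661 and 48350 in COS+APAP, 68566 and 63537 in APAP, and 57841 and 58048 in control livers, and none of the 7 was at 0. This sum differed between the groups without overlap. By the test described below, 2 of the 7 were higher, 1 was lower and 4 did not pass in APAP against control (42.9% called, against 45.4% of all tested genes). None passed in COS+APAP against APAP or against control livers, where 22.4% and 21.0% of all tested genes did. The part of the marker sum in the results was not tested. The treatment text of the labels assigns COS to the samples numbered 5 and 6, which in accession order are the libraries titled and labelled as APAP alone. Groups here follow the title, source and treatment fields; if the treatment text were right instead, the names COS+APAP and APAP would be exchanged and every difference between them would change sign. The numbering in the library titles begins with 2 in the COS+APAP group and with 1 in both other groups, and whatever this number stands for cannot be told apart from COS. In bulk liver RNA, fewer cells of a type and less RNA per cell cannot be told apart.

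The summed level of the 42 genes was higher in APAP than in control livers and highest in COS+APAP livers. It came to 2.71% and 3.07% of all FPKM in COS+APAP, 1.91% and 2.07% in APAP, and 1.28% and 1.09% in control livers. In FPKM the sum was 14026 and 15540 in COS+APAP livers, 9274 and 9801 in APAP livers, and 6752 and 6141 in control livers. The groups did not overlap, although with 2 libraries against 2 an exact permutation test cannot give a p below 0.33. The 3 fibrinogen chains supplied 7531 and 8479 of this in COS+APAP, 3316 and 3828 in APAP, and 1562 and 1305 in control livers. The other 39 genes together came to 6495 and 7060 in COS+APAP, 5958 and 5973 in APAP, and 5190 and 4835 in control livers. Without C3 as well, the remaining 38 came to 4843 and 5089 in COS+APAP, 4356 and 4539 in APAP, and 4354 and 3969 in control livers. For these 38 the lower APAP library lay just above the higher control library. By mean FPKM, Fgg, Fga and Fgb were the 3 most abundant of the 42 in COS+APAP livers, whereas C3 was the most abundant in APAP and in control livers.

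Single genes were tested with edgeR's quasi-likelihood F test on the estimated counts, with adjusted p (Benjamini-Hochberg over the 10051 genes whose mean FPKM reached 1) below 0.05 as the threshold; all 42 genes passed the filter. Values after ± are standard errors (SE) of log2 fold changes. Between APAP and control livers, 16 of the 42 rose, 8 fell and 18 did not pass (57.1% called), where 45.4% of all tested genes were called (23.3% higher and 22.1% lower). Between COS+APAP and APAP livers, 8 rose, 2 fell and 32 did not pass (23.8%), close to the 22.4% of all tested genes (11.2% higher and 11.1% lower). Between COS+APAP and control livers, 14 rose, 4 fell and 24 did not pass (42.9%), against 21.0% of all tested genes (10.7% higher and 10.3% lower). The median log2 fold change of the 42 was 0.28, 0.07 and 0.28 in these comparisons, and that of all tested genes -0.002, 0.006 and 0.018. The tested genes reach down to a mean FPKM of 1, while none of the 42 was below 6.44 FPKM in any library. Shares called among genes of like level were not computed. Each pair of comparisons shares a group of libraries, so they are given side by side and not as independent evidence. The calls of C1qb, C1ra, C8a, Cfb, Mbl1, Mbl2 and Serpina10 in APAP against control, and of C8b, Cfi, Kng1 and Serpind1 in COS+APAP against control, were lost under at least 1 other scaling, filter or tool. DESeq2 called a further 5, 5 and 7 of the 42 in the 3 comparisons. Where an adjusted p is given below as up to a value, that value is the largest over all alternative runs except the replicate block. For calls that were also lost under another scaling, filter or tool, it need not come from a left-out library. Of the calls, 10 of 24, 2 of 10 and 5 of 18 held when each of the 6 libraries in turn was left out, and no called gene of the 42 changed direction in any alternative run. Without APAP replicate 1, fewer of the 42 genes were called higher in COS+APAP than in APAP livers, and so were fewer of all tested genes.

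**Figure D1:**
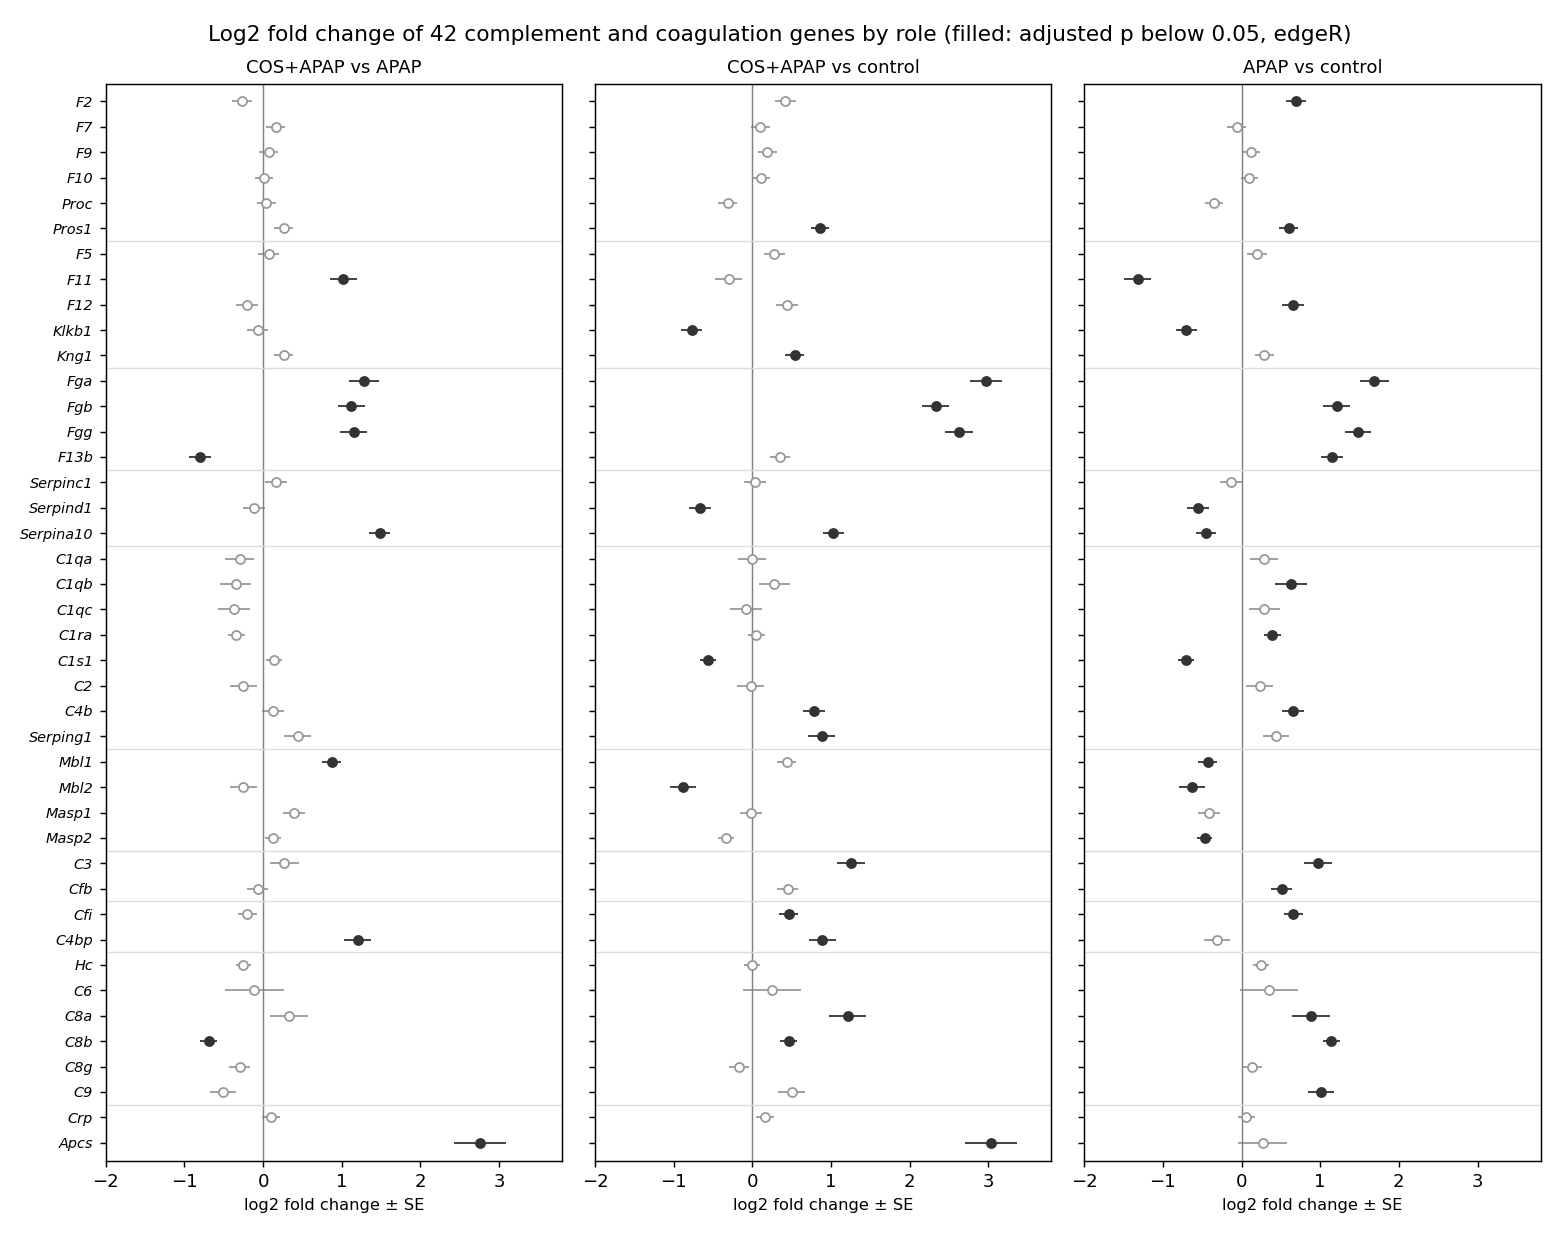
Log2 fold change (x axis, point) with its SE (bar) of the 42 genes, ordered by role, in COS+APAP against APAP (left), COS+APAP against control (middle) and APAP against control livers (right), with filled points for an adjusted p below 0.05 by edgeR. The 3 fibrinogen genes lie to the right of 0 in all panels, Apcs lies at 2.76 and 3.03 in both COS+APAP panels and at 0.27 in the APAP panel, and F11 lies at -1.32 in the APAP panel and at 1.02 in the COS+APAP against APAP panel.

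The 3 genes of fibrinogen, the precursor of the fibrin clot and an acute phase protein, rose against control more than any other coagulation gene of the 42, after APAP alone and after COS and APAP. Each was higher in APAP than in control livers, and higher again in COS+APAP than in APAP livers. Fga, which encodes the Aα chain (ENSMUSG00000028001), was measured at 2545 and 2888 FPKM in COS+APAP, 1036 and 1233 in APAP, and 430 and 342 in control livers. Fgb, the Bβ chain (ENSMUSG00000033831), had 2193 and 2407 FPKM in COS+APAP, 972 and 1179 in APAP, and 541 and 479 in control livers. Fgg, the γ chain (ENSMUSG00000033860), reached 2793 and 3184 FPKM in COS+APAP, 1308 and 1416 in APAP, and 590 and 484 in control livers. For all 3 chains the groups were fully separate, with COS+APAP livers highest and control livers lowest. Log2 fold changes of COS+APAP over APAP were 1.28 ± 0.19 for Fga (adjusted p = 0.0127), 1.12 ± 0.17 for Fgb (adjusted p = 0.013) and 1.15 ± 0.17 for Fgg (adjusted p = 0.0124). Those of APAP over control were 1.69 ± 0.19 for Fga (adjusted p = 0.00253), 1.21 ± 0.17 for Fgb (adjusted p = 0.00414) and 1.48 ± 0.17 for Fgg (adjusted p = 0.00266). COS+APAP exceeded control by 2.97 ± 0.20 for Fga, 2.33 ± 0.17 for Fgb and 2.63 ± 0.18 for Fgg (adjusted p = 0.00273, 0.00309 and 0.00273). The calls of APAP and of COS+APAP against control held without any single library. Those of COS+APAP against APAP were lost for Fga without COS+APAP replicate 3 or APAP replicate 1 (adjusted p up to 0.08), for Fgb without either COS+APAP library or APAP replicate 1 (up to 0.0835), and for Fgg without COS+APAP replicate 3, APAP replicate 1 or APAP replicate 3 (up to 0.0779).

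**Figure D2:**
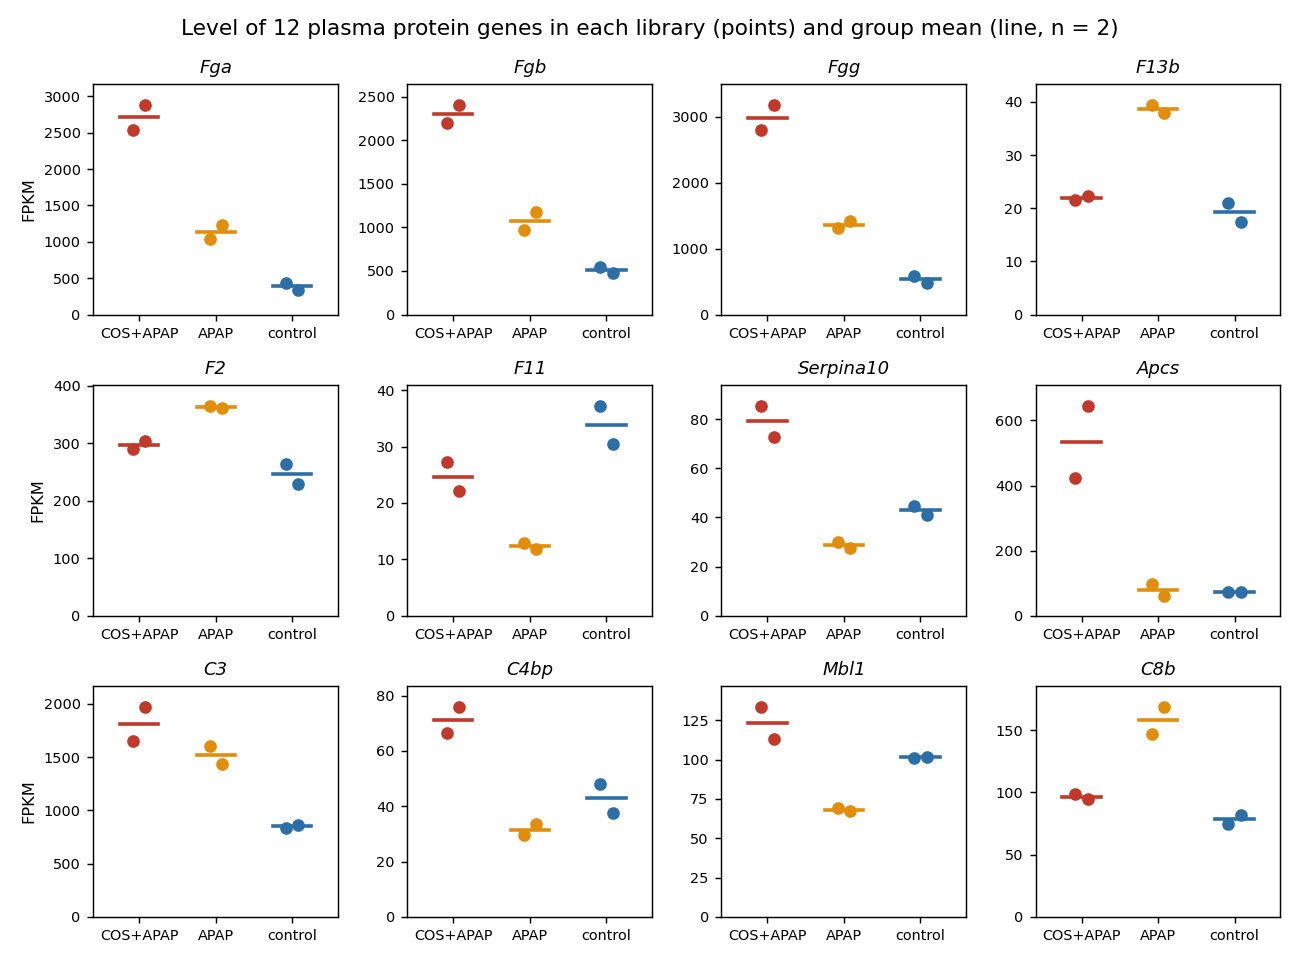
FPKM (y axis, linear from 0) of 12 genes in each library (points) with the mean of each group (line, n = 2), for COS+APAP (left), APAP (middle) and control livers (right). Fga, Fgb and Fgg step down from COS+APAP over APAP to control, Apcs stands at 425 and 645 FPKM in COS+APAP livers with all other libraries below 99, and F13b and C8b are highest in APAP livers.

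The chains are assembled into 1 protein in equal numbers, while their transcripts were not in a fixed ratio. The ratio of Fga to Fgb FPKM was 1.16 and 1.20 in COS+APAP, 1.07 and 1.05 in APAP, and 0.79 and 0.71 in control livers. Fga was thus the less abundant of this pair in control livers and the more abundant in the other 4. Fgg, Fga and Fgb lie in this order on chromosome 3, with Fgg separated from Fga by 11026 bases and Fga from Fgb by 6513 bases. Fgg and Fga are on the forward strand and Fgb on the reverse strand.

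The 250 bases before the start sites of the fibrinogen genes and of Apcs, the other gene with a large rise in COS+APAP livers, are shown because these 4 genes had the 4 largest log2 fold changes between COS+APAP and control livers. They are RefSeq sequences of build GRCm38.p6, written 5′ to 3′ on the strand of the gene, with the last base next to the start site. Capitals mark matches, on either strand, to letters of 3 motifs: TTGCNNAA for C/EBP, TTCNNNGAA for STAT factors, and CTGGGA for the IL-6 response element described for acute phase genes.
Fga (chr3:83025903-83026152, forward strand): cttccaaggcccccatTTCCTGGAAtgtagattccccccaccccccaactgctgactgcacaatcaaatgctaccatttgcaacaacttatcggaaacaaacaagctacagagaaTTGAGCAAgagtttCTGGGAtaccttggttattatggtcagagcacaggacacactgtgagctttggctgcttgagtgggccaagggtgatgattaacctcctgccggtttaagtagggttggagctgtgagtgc
Fgb (chr3:83049864-83050113, reverse strand): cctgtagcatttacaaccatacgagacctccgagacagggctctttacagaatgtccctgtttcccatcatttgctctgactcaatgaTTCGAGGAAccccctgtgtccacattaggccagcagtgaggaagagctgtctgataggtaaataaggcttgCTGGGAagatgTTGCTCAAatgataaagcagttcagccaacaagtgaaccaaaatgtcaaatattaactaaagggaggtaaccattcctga
Fgg (chr3:83007474-83007723, forward strand): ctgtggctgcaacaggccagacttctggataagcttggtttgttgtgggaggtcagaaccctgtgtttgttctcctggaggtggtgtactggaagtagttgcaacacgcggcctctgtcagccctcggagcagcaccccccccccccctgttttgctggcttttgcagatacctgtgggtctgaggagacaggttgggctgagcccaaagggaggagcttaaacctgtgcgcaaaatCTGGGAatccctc
Apcs (chr1:172895055-172895304, reverse strand): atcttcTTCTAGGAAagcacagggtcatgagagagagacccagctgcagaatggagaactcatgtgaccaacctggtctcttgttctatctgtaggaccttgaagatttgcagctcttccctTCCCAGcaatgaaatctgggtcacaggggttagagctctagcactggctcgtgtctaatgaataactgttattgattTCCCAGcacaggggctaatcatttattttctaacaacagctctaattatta

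All 4 windows held CTGGGA or its reverse complement, and Fga, Fgb and Apcs also held TTCNNNGAA. In the Fga window the matches lay at -234 to -226 (STAT), -135 to -128 (C/EBP, reverse) and -121 to -116 (IL-6 response element), counted from the start site. The Fgb window had them at -162 to -154 (STAT), -91 to -86 (IL-6 response element) and -80 to -73 (C/EBP). Fgg had a single match, to the IL-6 response element at -13 to -8. Apcs had a STAT match at -244 to -236 and the reverse complement of CTGGGA at -128 to -123 and -51 to -46. No match overlapped another. RefSeq windows were at hand for 32 of the 42 genes. Among these 32, CTGGGA was found in 16 (50.0%), against 27.0% of all 32817 windows, TTGCNNAA in 8 (25.0%, against 9.57%) and TTCNNNGAA in 7 (21.9%, against 7.01%). The RefSeq start of Fga lies 77 bases inside the gene as the deposited table places it, that of Apcs is 13 bases from the deposited end, and those of Fgb and Fgg coincide with it. Matches also occurred in genes that did not rise. F9 held all 3 motifs, F10 and Crp held CTGGGA, and none of them was called in any comparison. Klkb1, C1s1 and Serpind1 held CTGGGA and were lower than control in APAP and COS+APAP livers. Pros1 and C8a held CTGGGA and TTCNNNGAA and were higher than control in both. Masp2 held the same motifs, was lower than control in APAP livers (log2 fold change -0.47) and was not called in COS+APAP livers (-0.33). All of these are matches of letters and were not tested against the expression values.

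F13b, the carrier subunit of the factor that crosslinks fibrin, did not follow the fibrinogen chains. It had 21.6 and 22.4 FPKM in COS+APAP, 39.5 and 38.0 in APAP, and 21.1 and 17.4 in control livers. APAP livers were the highest, and COS+APAP livers lay just above control. F13b rose in APAP over control by 1.15 ± 0.14 on the log2 scale (adjusted p = 0.00281) and was lower in COS+APAP than in APAP by a log2 fold change of -0.80 ± 0.14 (adjusted p = 0.0167). Between COS+APAP and control the log2 fold change was 0.35 (adjusted p = 0.126). The call between COS+APAP and APAP was lost without either COS+APAP library or APAP replicate 1 (adjusted p up to 0.0813).

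Of the 6 vitamin K dependent genes of thrombin generation, none was called between COS+APAP and APAP livers, a comparison in which 22.4% of all tested genes were called, and log2 fold changes ran from -0.27 to 0.26. F2, which encodes prothrombin, had 290 and 303 FPKM in COS+APAP, 365 and 361 in APAP, and 265 and 229 in control livers. APAP livers were again highest and the groups did not overlap. F2 rose in APAP over control livers by 0.69 ± 0.13 (adjusted p = 0.0106), and its log2 fold change of COS+APAP over APAP was -0.27 ± 0.13 (adjusted p = 0.197). Pros1, which encodes protein S, a cofactor of activated protein C, rose in APAP (0.60, adjusted p = 0.0107) and in COS+APAP livers (0.86, adjusted p = 0.00955) over control. F7, F9 and F10, the serine proteases that act upstream of thrombin, had log2 fold changes between -0.06 and 0.19 in all 3 comparisons, and none was called. Proc, the precursor of activated protein C, had log2 fold changes of -0.35 in APAP (adjusted p = 0.0603) and -0.31 in COS+APAP (adjusted p = 0.124) against control; both were called lower with library totals, DESeq2 and limma (adjusted p down to 0.016 and 0.0378). The F2 call was lost without APAP replicate 1 (adjusted p = 0.062), and the Pros1 call in COS+APAP without COS+APAP replicate 3 (adjusted p = 0.0547).

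The contact system, which starts clotting at charged surfaces and releases kinins, was split. F11, the zymogen that links contact activation to factor IX, showed the largest fall of the 42 genes after APAP. It had 27.2 and 22.1 FPKM in COS+APAP, 12.8 and 11.8 in APAP, and 37.2 and 30.4 in control livers. COS+APAP livers lay between the other groups without overlap. F11 fell by 1.32 on the log2 scale in APAP against control (SE 0.17, adjusted p = 0.0034) and rose by 1.02 ± 0.17 in COS+APAP against APAP (adjusted p = 0.016). Its log2 fold change of COS+APAP over control was -0.30 (adjusted p = 0.244). Klkb1, the gene of plasma prekallikrein, which cleaves kininogen, is the neighbour of F11 on chromosome 8 at a distance of 4657 bases on the same strand. Klkb1 was lower than control in APAP (-0.70, adjusted p = 0.0104) and in COS+APAP livers (-0.77, adjusted p = 0.0169), and its log2 fold change between the treated groups was -0.07 (adjusted p = 0.719). F12, the initiating zymogen of the contact system, rose in APAP against control (0.65, adjusted p = 0.014), and Kng1, the kininogen gene, in COS+APAP against control (0.54, adjusted p = 0.0315). F5, the cofactor of the protease that activates prothrombin, was called in no comparison. F11 was no longer called between COS+APAP and APAP without COS+APAP replicate 2, APAP replicate 1 or APAP replicate 3 (adjusted p up to 0.0688). Without APAP replicate 3 the Klkb1 fall in APAP was not called (0.0512), nor was the one in COS+APAP without COS+APAP replicate 3 or either control library (up to 0.0727). F12 depended on APAP replicate 3 and control replicate 3 (up to 0.0643), and Kng1 on each of the 6 libraries (up to 0.142).

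Of the 3 clotting inhibitors, Serpina10 rose in COS+APAP livers against both other groups. It encodes the protein Z-dependent inhibitor of activated factor X. Serpina10 had 85.4 and 72.6 FPKM in COS+APAP, 29.8 and 27.4 in APAP, and 44.8 and 41.1 in control livers. Both COS+APAP libraries were above all others and both APAP libraries below. The log2 fold change was 1.48 ± 0.13 for COS+APAP over APAP (adjusted p = 0.00589), 1.03 ± 0.13 for COS+APAP over control (adjusted p = 0.00867) and -0.45 ± 0.13 for APAP over control (adjusted p = 0.0388). The first 2 of these calls held without any single library, and the fall after APAP was lost without any 1 of the 4 APAP and control libraries (adjusted p up to 0.158). Serpind1, heparin cofactor II, an inhibitor of thrombin, fell in APAP (-0.55, adjusted p = 0.0223) and in COS+APAP livers (-0.66, adjusted p = 0.0259) against control. The call in APAP was lost without either APAP library or control replicate 1 (adjusted p up to 0.0939), and that in COS+APAP without either COS+APAP library, APAP replicate 3 or control replicate 1 (up to 0.107). Serpinc1, which encodes antithrombin, had log2 fold changes from -0.13 to 0.16 and was called in no comparison.

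The pentraxins are pattern recognition proteins that bind C1q. Apcs, the gene of serum amyloid P component and the main acute phase pentraxin of mice, had the largest rise of the 42 genes in COS+APAP livers. Its level (ENSMUSG00000026542) was 425 and 645 FPKM in COS+APAP, 98.7 and 60.6 in APAP, and 74.0 and 71.9 in control livers. The COS+APAP libraries exceeded all others, and the APAP libraries lay on either side of the controls. Apcs rose by 2.76 ± 0.33 in COS+APAP against APAP (adjusted p = 0.0082) and by 3.03 ± 0.33 against control (adjusted p = 0.00598). Its log2 fold change after APAP alone was 0.27 ± 0.31 (adjusted p = 0.509). By mean FPKM Apcs was number 6 of the 42 genes in COS+APAP livers and number 22 in APAP and in control livers. Crp, the C-reactive protein gene, lies 60929 bases from Apcs on chromosome 1. Crp had 62.3 and 62.9 FPKM in COS+APAP, 56.9 and 61.4 in APAP, and 66.1 and 58.5 in control livers, with log2 fold changes of 0.06 to 0.16 and no call.

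**Figure D3:**
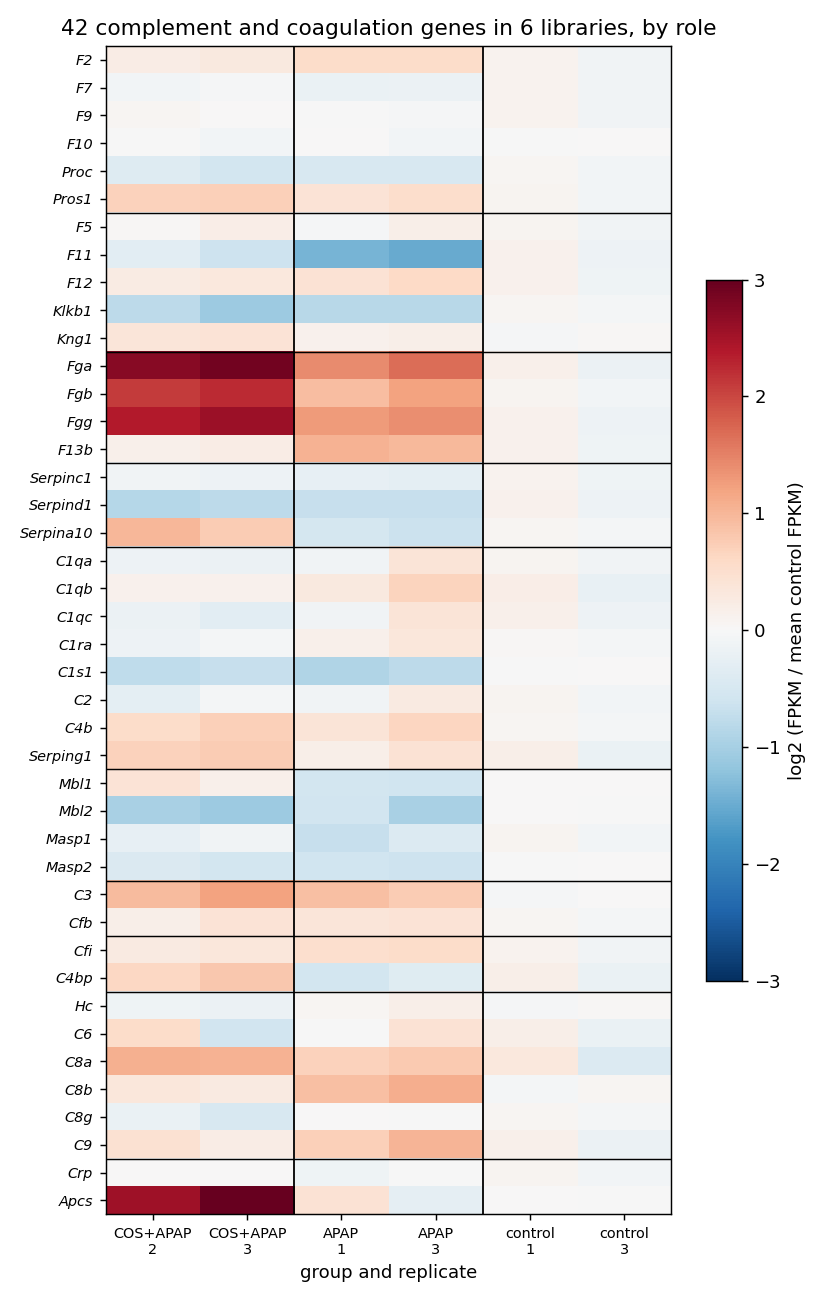
Log2 ratio of the FPKM of each of the 42 genes (vertical, ordered by role) to its mean in control livers, in the 6 libraries (horizontal, COS+APAP replicates 2 and 3, APAP replicates 1 and 3, control replicates 1 and 3). Red is above and blue below the control mean; Fga, Fgb, Fgg and Apcs are the darkest red in COS+APAP livers, and F11 is the darkest blue in APAP livers.

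C3, on which all complement pathways converge and which is itself an acute phase protein, rose in both treated groups against control. It had 1652 and 1971 FPKM in COS+APAP, 1603 and 1434 in APAP, and 836 and 866 in control livers. C3 rose in APAP by 0.97 ± 0.18 (adjusted p = 0.0087) and in COS+APAP by 1.25 ± 0.18 (adjusted p = 0.0106) against control. The log2 fold change of COS+APAP over APAP was 0.27 ± 0.18 (adjusted p = 0.303). Cfb, factor B of the alternative pathway, rose in APAP against control (0.51, adjusted p = 0.0272); in COS+APAP livers its log2 fold change over control was 0.45 (adjusted p = 0.068). The C3 call in APAP was lost without APAP replicate 1 (adjusted p = 0.061), and in COS+APAP without COS+APAP replicate 3 (adjusted p = 0.0627). The Cfb call was lost without any 1 APAP or control library and when only library totals were used for scaling (adjusted p up to 0.108).

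Of the 8 genes of the classical pathway, 3 rose and 1 fell in APAP against control (23.3% and 22.1% of all tested genes), and none was called between COS+APAP and APAP livers (22.4% of all tested genes). The 3 chains of C1q, the recognition protein of this pathway, are made in liver mainly by macrophages (Kupffer cells) and not by hepatocytes. C1qa had 33.1 and 32.6 FPKM in COS+APAP, 34.0 and 47.9 in APAP, and 39.0 and 34.2 in control livers. C1qb had 26.0 and 26.2 FPKM in COS+APAP, 29.3 and 38.2 in APAP, and 27.5 and 20.3 in control livers. C1qc had 11.6 and 10.4 FPKM in COS+APAP, 12.1 and 16.8 in APAP, and 14.3 and 11.6 in control livers. In all 3 genes APAP replicate 3 was the highest library. C1qb rose in APAP against control (0.63 ± 0.20, adjusted p = 0.0474), whereas the log2 fold change was 0.29 for both C1qa (adjusted p = 0.225) and C1qc (adjusted p = 0.277). Without APAP replicate 3, as without any library other than control replicate 1, the C1qb call was lost (adjusted p up to 0.184). Summed FPKM of 10 Kupffer cell markers, none of them at 0, was 80.3 and 88.3 in COS+APAP, 75.5 and 100.5 in APAP, and 69.1 and 61.9 in control livers. Of the 10, 3 were higher and none lower in APAP against control (30.0% called, against 45.4% of all tested genes). In COS+APAP against APAP, 1 was higher and 1 lower (20.0%, against 22.4%). In COS+APAP against control, 2 were higher and none lower (20.0%, against 21.0%). The marker sum was also highest in APAP replicate 3, and its part in the C1q values was not tested.

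The C1r and C1s proteases, which C1q activates in turn, are encoded by neighbouring genes on chromosome 6 and moved apart. C1s1 fell in APAP (-0.71 ± 0.10, adjusted p = 0.00455) and in COS+APAP livers (-0.56 ± 0.10, adjusted p = 0.019) against control, and C1ra rose in APAP (0.39 ± 0.11, adjusted p = 0.0352). The ratio of C1s1 to C1ra FPKM was 1.27 and 1.25 in COS+APAP, 0.91 and 0.89 in APAP, and 1.86 and 1.99 in control livers, without overlap. C4b, the complement C4 gene, rose in APAP (0.66, adjusted p = 0.0154) and COS+APAP livers (0.78, adjusted p = 0.0197) over control. Serping1, the C1 inhibitor, was called in COS+APAP livers (0.88, adjusted p = 0.0216), with 0.44 in APAP (adjusted p = 0.0798). C2, the protease that joins C4b in the C3 convertase, was not called. The C1s1 fall in APAP held without any single library, and the C1ra rise was lost without each of the 6 (adjusted p up to 0.144). In COS+APAP against control, C1s1 was lost without any COS+APAP or control library (up to 0.0845), and C4b and Serping1 without either COS+APAP library or control replicate 3 (up to 0.0949 and 0.0954). The C4b call in APAP was lost without APAP replicate 3 or control replicate 3 (up to 0.0738). C1ra, C1s1, C4b and Kng1 have near-identical copies in the mouse genome that can share reads with them, so their values are uncertain to that extent.

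In the lectin pathway, which is triggered by sugars on microbial surfaces, 3 of the 4 genes fell in APAP against control, as did 22.1% of all tested genes. Mbl1, a mannose-binding lectin, had 133 and 113 FPKM in COS+APAP, 69.3 and 67.1 in APAP, and 101 and 101 in control livers. It was highest in COS+APAP and lowest in APAP livers. Mbl1 rose by 0.87 ± 0.12 in COS+APAP against APAP (adjusted p = 0.0108) and was lower in APAP than in control by a log2 fold change of -0.43 ± 0.12 (adjusted p = 0.031). Its log2 fold change of COS+APAP over control was 0.44 (adjusted p = 0.0525), which was called only with DESeq2 (adjusted p = 0.00993). Mbl2, the other mannose-binding lectin, was lower than control in APAP (-0.63, adjusted p = 0.0295) and in COS+APAP livers (-0.88, adjusted p = 0.022), with -0.25 between these groups (adjusted p = 0.316). The ratio of Mbl1 to Mbl2 FPKM was 1.00 and 0.93 in COS+APAP, 0.40 and 0.51 in APAP, and 0.38 and 0.40 in control livers. Masp2, the lectin pathway protease that cleaves C4 and C2, fell in APAP (-0.47, adjusted p = 0.0141), and Masp1, its activator, had a log2 fold change of -0.41 (adjusted p = 0.0535), which was called with RLE factors, library totals, DESeq2 and limma (adjusted p down to 0.0163). Masp2 overlaps Tardbp on the opposite strand (mean 15.3 FPKM), and as the strand setting of the counting is not stated, reads of the pair may be mixed. The Mbl1 call between COS+APAP and APAP was lost without APAP replicate 1 (adjusted p = 0.0502), and that in APAP against control without any APAP or control library (up to 0.124). The Mbl2 and Masp2 calls in APAP were lost without APAP replicate 3 or either control library (up to 0.0976 and 0.0654), and the Mbl2 call in COS+APAP without any COS+APAP or control library (up to 0.109).

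C4bp, the α chain of the C4b-binding protein, which limits the classical and lectin pathways, was higher in COS+APAP than in the other groups. It had 66.3 and 75.9 FPKM in COS+APAP, 29.5 and 33.5 in APAP, and 48.1 and 37.6 in control livers. The groups did not overlap, and APAP livers were lowest. C4bp rose by 1.20 ± 0.17 in COS+APAP against APAP (adjusted p = 0.0112) and by 0.89 ± 0.17 against control (adjusted p = 0.021), and its log2 fold change after APAP alone was -0.31 (adjusted p = 0.177). Cfi, factor I, the protease that inactivates C3b and C4b, rose in APAP (0.66, adjusted p = 0.00882) and in COS+APAP livers (0.46, adjusted p = 0.0483) over control. The C4bp call against APAP was lost without APAP replicate 1 (adjusted p = 0.0653), that against control without either COS+APAP library or control replicate 3 (up to 0.0953), and the Cfi call in COS+APAP without each of the 6 libraries (up to 0.176).

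Genes of the membrane attack complex rose in part. C8a, C8b and C8g encode the 3 chains of C8, of which the first 2 rose in APAP against control. C8b had 98.5 and 94.8 FPKM in COS+APAP, 147 and 169 in APAP, and 74.9 and 82.2 in control livers. C8a had 141 and 139 FPKM in COS+APAP, 109 and 117 in APAP, and 83.8 and 51.3 in control livers. Thus C8b was highest in APAP and C8a in COS+APAP livers, and neither showed overlap between groups. C8b rose by 1.14 ± 0.11 in APAP against control (adjusted p = 0.00184) and was lower in COS+APAP than in APAP (-0.69 ± 0.11, adjusted p = 0.0151), remaining above control by 0.46 (adjusted p = 0.0405). C8a rose in APAP (0.88 ± 0.24, adjusted p = 0.0315) and in COS+APAP (1.21 ± 0.24, adjusted p = 0.0245) against control, with 0.33 between them (adjusted p = 0.356). C8g was called in no comparison (-0.30 to 0.13), although it overlaps Fbxw5 on the opposite strand (mean 12.1 FPKM).

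The ratio of C8a to C8g FPKM was 0.93 and 1.12 in COS+APAP, 0.63 and 0.68 in APAP, and 0.47 and 0.31 in control livers, and that of C8b to C8g was 0.65 and 0.76 in COS+APAP, 0.85 and 0.98 in APAP, and 0.42 and 0.49 in control livers. C9, which forms the pore, had 74.7 and 64.4 FPKM in COS+APAP, 89.8 and 111 in APAP, and 60.7 and 48.8 in control livers. APAP livers were highest here too. C9 rose in APAP by 1.01 ± 0.17 (adjusted p = 0.00694), and its log2 fold changes of COS+APAP over APAP (-0.51, adjusted p = 0.0831) and over control (0.50, adjusted p = 0.0913) did not pass. Hc, the mouse C5 gene, and C6 were not called in any comparison. C6 had the largest SE of the 42 genes (0.37), with 39.9 and 18.5 FPKM in COS+APAP, 27.0 and 36.8 in APAP, and 30.7 and 24.0 in control livers. The C8b and C9 rises in APAP held without any single library. The fall of C8b in COS+APAP against APAP was lost without any 1 of those 4 libraries (adjusted p up to 0.0674), its rise against control without each of the 6 (up to 0.155), the C8a call in APAP without any COS+APAP or APAP library (up to 0.104), and the C8a call in COS+APAP without either COS+APAP library or APAP replicate 1 (up to 0.0953).

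**Figure D4:**
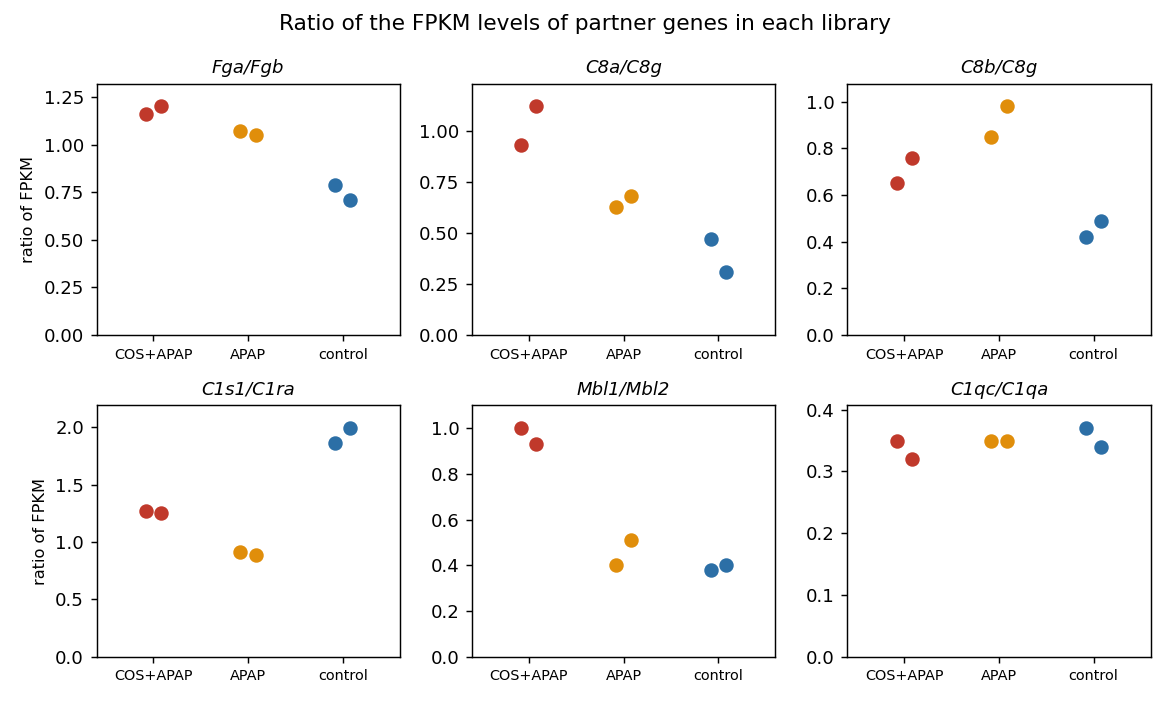
Ratio of the FPKM levels (y axis, linear from 0) of 6 pairs of genes whose products act in 1 complex or pathway step, in each library (points), for COS+APAP (left), APAP (middle) and control livers (right). C1qc to C1qa stays between 0.32 and 0.37 in all 6 libraries. The other 5 ratios separate at least 1 group, such as C1s1 to C1ra with 1.86 and 1.99 in control livers against 0.89 to 1.27 in the rest. C1qb to C1qa, which is not drawn, was 0.70 and 0.59 in control livers against 0.78 to 0.86 in the rest.

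Genes of the same pathways outside the 42, from lists of receptors, other soluble factors and regulators, included much larger changes at lower levels. Of those named here, Thbd, Plaur, Cd93 and Vkorc1l1 were below 1 FPKM in every COS+APAP and control library. They reached the filter of a mean FPKM of 1 only through the APAP libraries, so the filter itself favours a high level in APAP livers among such genes. Thbd, the endothelial receptor that turns thrombin towards protein C, had 0.51 and 0.51 FPKM in COS+APAP, 9.49 and 6.34 in APAP, and 0.23 and 0.12 in control livers. APAP livers were highest, with log2 fold changes of -3.93 ± 0.38 for COS+APAP over APAP (adjusted p = 0.00589) and 5.59 ± 0.41 for APAP over control (adjusted p = 0.00123). Plaur, the urokinase receptor, Cd93, a receptor of endothelial and myeloid cells, and Vkorc1l1, a vitamin K epoxide reductase, were also highest in APAP livers, with -3.67, -2.46 and -2.19 for COS+APAP over APAP and 4.89, 2.68 and 2.71 for APAP over control, all called; Cd93 and Vkorc1l1 overlapped between COS+APAP and control livers. Without a COS+APAP library the Plaur call between COS+APAP and APAP was lost (adjusted p up to 0.0661), as was that of Vkorc1l1 without COS+APAP replicate 2 or APAP replicate 1 (up to 0.0761). For the lists that follow, the shares of all tested genes are 23.3% higher and 22.1% lower in APAP against control, and 11.2% higher and 11.1% lower in COS+APAP against APAP. Of 12 tested other coagulation genes, 3 rose and 4 fell in APAP against control, and 2 rose and 1 fell in COS+APAP against APAP. Of 8 tested fibrinolysis genes, 2 rose and 1 fell, and 2 rose and 2 fell, in these comparisons. Of 16 other soluble complement genes, 4 rose and 1 fell, and 3 rose and 3 fell. Of 7 complement receptors and surface regulators, 1 rose and 1 fell, and 1 rose and 2 fell. The 6 genes of the vitamin K cycle, which serves F2, F7, F9, F10, Proc and Pros1, had 2 rises and 1 fall, and 1 rise and 1 fall. The shares called in either direction were 28.6% to 58.3% of these lists in APAP against control (45.4% of all tested genes) and 25.0% to 50.0% in COS+APAP against APAP (22.4%), and lists of 6 to 16 genes leave such shares coarse. Summed FPKM of 6 platelet markers, 3 of them at 0 in at least 1 library, was 1.80 and 1.72 in COS+APAP, 9.36 and 5.68 in APAP, and 1.72 and 2.68 in control livers. For 6 monocyte and neutrophil markers, 1 of them at 0 in at least 1 library, it was 4.01 and 2.82 in COS+APAP, 31.7 and 10.5 in APAP, and 4.36 and 6.72 in control livers. For 7 sinusoidal endothelial markers, none at 0, it was 19.6 and 16.4 in COS+APAP, 39.9 and 37.6 in APAP, and 33.8 and 39.1 in control livers. Of these 7, 1 was higher and 1 lower in APAP against control (28.6% called, against 45.4% of all tested genes). None was higher and 6 were lower in COS+APAP against APAP (85.7%, against 22.4%). None was higher and 5 were lower in COS+APAP against control (71.4%, against 21.0%). The part of these cells in the results was not tested.

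Regulators that are known to act on acute phase and clotting genes were also measured. Of 16 hepatocyte transcription factors, 3 rose and 9 fell in APAP against control (75.0% called, against 45.4% of all tested genes), and 6 rose and none fell in COS+APAP against APAP (37.5%, against 22.4%). Of 11 tested genes of IL-6, IL-1 and STAT3 signalling, 7 rose and 1 fell in APAP against control (72.7%, against 45.4%), and 1 rose and 5 fell in COS+APAP against APAP (54.5%, against 22.4%). Besides Il1b, the falls in the second of these were Il6st (-1.09, adjusted p = 0.00589), Jak1 (-0.64, adjusted p = 0.0398), Jak2 (-1.43, adjusted p = 0.0113) and Socs3 (-1.60, adjusted p = 0.0375). Il6st, Jak1, Jak2 and Socs3 were each called higher in APAP than in control livers (1.14, 0.88, 1.13 and 2.44). In COS+APAP against control they were not called (0.05, 0.24, -0.30 and 0.84). Their dependence on single libraries is not given here. Il6ra, the IL-6 receptor, was the rise in that comparison (0.79 ± 0.20, adjusted p = 0.0409). It had 10.9 and 10.6 FPKM in COS+APAP, 5.67 and 6.99 in APAP, and 4.35 and 3.09 in control livers. The Il6ra call was lost without any 1 of the COS+APAP and APAP libraries, without the filter on low values, or with limma on log2(FPKM + 0.1). Il6ra was higher in COS+APAP than in control livers (1.69, adjusted p = 0.00717), which held without any single library. Il1b, which encodes interleukin-1β, had 0.13 and 0.12 FPKM in COS+APAP, 2.28 and 0.65 in APAP, and 1.59 and 2.20 in control livers, and was called lower in COS+APAP than in APAP (-3.47 ± 0.69, adjusted p = 0.0232) and control livers (-3.69, adjusted p = 0.0208). The call against APAP was lost without either COS+APAP library or with limma on log2(FPKM + 1) (adjusted p up to 0.105), and that against control without any COS+APAP or control library (up to 0.109). Il1r1, its receptor, was higher than control in APAP and COS+APAP livers (2.66 and 3.07, both called). Il6 itself, named after its values were seen, was listed at 0 in all 6 libraries. Of 15 genes of translocation into and folding in the endoplasmic reticulum, through which all secreted plasma proteins pass, 2 rose and 7 fell in APAP against control (60.0%, against 45.4%), and 8 rose and none fell in COS+APAP against APAP (53.3%, against 22.4%). The chaperone genes Dnajb9 (2.82 in APAP and 2.39 in COS+APAP) and Hspa5 (2.19 and 1.79) rose in both over control; the COS+APAP calls were lost without control replicate 3 (adjusted p up to 0.0645 and 0.119), and that of Hspa5 also without either COS+APAP library.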

How the data were processed

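Poly(A) RNA of mouse liver was sequenced in paired-end mode, per the labels' protocols. The submitters' processing notes name HISAT2 2.0, an aligner, and StringTie 1.3.0, an assembler. Neither the build nor the strand setting is given in the sources used here. Per the file headers, the deposited table holds estimated counts and FPKM values for each gene. The counts were whole numbers and entered the tests unchanged. In each library a count of 4 occurred in 766 to 990 genes but a count of 3 in 290 to 350. A further 6 columns of values matched no sample and were not used. For 40 of the 42 genes the deposited coordinates were identical to those of GENCODE M21.

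The main test was edgeR 4.0.16 (R 4.3.3) with TMM scaling, two-sided, in a single model of the 3 groups that left 3 residual degrees of freedom. The SE was taken as the ratio of the log2 fold change to the root of F. p-values measure only the spread between these libraries, which may be technical, and expression was measured, not protein. Alternatives were RLE factors, library totals, DESeq2 1.42.0, limma 3.58.1 on log2(FPKM + 1) and log2(FPKM + 0.1), no filter, the 2 groups alone, a replicate block, and each library left out. The 42 genes and all lists were chosen with earlier results of these data known, so no list was tested. Values in every library are given for the called genes with the 8 largest log2 fold changes per comparison, the fibrinogen and C1q chains, C3 and F2, and other pathway genes are named when among the 6 largest called changes of a comparison. Crp, C6, Il6, Il6st, Jak1, Jak2 and Socs3 are given beyond this rule, after their values were seen. Some genes that this rule would name are not reported here.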

Additional observations from a re-analysis of the deposited data

How the results depend on the processing

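Scaling by library totals alone lowered the median log2 fold change of all tested genes to -0.155 in APAP and -0.157 in COS+APAP against control. The median of the 42 genes then became 0.12 and 0.10, and with limma it was 0.12 and 0.13 with a pseudocount of 1, and 0.13 and 0.13 with 0.1. Over all tested genes the totals gave 1869 higher and 2814 lower in APAP against control, and 706 higher and 1644 lower in COS+APAP against control. Without the filter on low values, 5 of the 42 genes were lower in APAP than in control livers. DESeq2 called 5 lower in COS+APAP than in APAP livers. With the replicate block, 8 genes were higher and 3 lower in APAP against control. No other library shares the number of COS+APAP replicate 2, so with the block the comparisons of COS+APAP rested on COS+APAP replicate 3 alone. Nearly all calls were lost there, among the 42 genes and among all tested genes, and that loss says nothing particular about the 42. The shared numbers were not shown to pair the libraries, since deviations of same-numbered libraries from their group means correlated at -0.00523, -0.033 and 0.0309. Leaving out 1 library at a time gave 10 to 15 genes higher and 2 to 8 lower in APAP against control, 2 to 8 higher and 0 to 2 lower in COS+APAP against APAP, and 5 to 11 higher and 0 to 4 lower in COS+APAP against control, where the median ranged from 0.14 to 0.42. Where a group was left with 1 library, that library was assumed to vary like the other groups. Calls over all tested genes were also fewer in every comparison, in each run with a library left out and with the replicate block. The smaller counts are thus not particular to the 42 genes. Apart from the comparisons of COS+APAP with the replicate block, the counts of calls that are not listed here were within 1.5 times those reported. Of the genes without a call, 7, 7 and 11 changed sign in at least 1 alternative. The smallest estimated count, 1655, belonged to C1qc, and precision was limited by the 2 libraries per group.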
